A study of Mus musculus with 22 samples.

Results

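The response of MK2-deficient macrophages to 6 h of lipopolysaccharide (LPS) was described from 8 of the 22 arrays of the series, 4 of LPS-treated and 4 of medium-treated MK2-/- bone marrow-derived macrophages (BMDM), chosen by the genotype and treatment in the sample titles. BMDM are obtained by culturing marrow cells of mice with the growth factor M-CSF. Per the labels, the mice were male C57BL/6 animals that lacked the protein kinase MK2, and the cells were kept for 360 min with 100 ng per ml LPS or in medium without LPS. Animals of MK2-/- replicates 1, 2, 3 and 4 were 10, 11, 12 and 13 weeks old in both treatments. For comparison, wild-type (wt) BMDM were represented by 3 LPS and 4 medium arrays of mice aged 12 to 13 weeks, and BMDM without MK2 or MK3 (MK2/3-/-) by 4 LPS arrays (11 to 14 weeks) and 3 medium arrays (11 to 12 weeks). The deletion was present in all tissues of these mice throughout life, which differs from an acute loss of the kinase in macrophages.

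LPS is a glycolipid from the envelope of Gram-negative bacteria. Macrophages sense it through CD14, MD-2 and Toll-like receptor 4 (TLR4), which signals through the adaptors MyD88 and TRIF to the transcription factors NF-kB and IRF3 and to the MAP kinases, p38 among them. MK2 and the related MK3 are kinases activated by p38, and MK2 is known for phosphorylating the mRNA-destabilising protein tristetraprolin (Zfp36), which binds AU-rich elements of many cytokine mRNAs. In macrophages, LPS is known to induce cytokines, chemokines and interferon-stimulated genes and to stop the division that M-CSF drives.

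Levels are normalised log2 signals of a 1-colour array, and a gene was called when its limma p-value, adjusted over all 22371 genes tested, was below 0.05. Values of the 4 arrays of a group are given in the order of replicates 1 to 4, and differences are LPS minus medium on the log2 scale, so that 1 unit is a doubling. The median processed signal of the 22 arrays ranged from 32.7 to 108, and 61.7% to 83.0% of probes were well above background. MK2-/- LPS replicate 3 had 2927 spots marked as uneven or outlying, whereas the other 21 arrays had 115 to 261. The LPS and medium arrays of MK2-/- replicate 3 went against the label male: Ddx3y, a Y-linked gene, was at 1.99 and 2.01 there and at 10.09 to 11.26 on the other 6 MK2-/- arrays, and Xist, which is expressed from the inactive X chromosome, was at 7.66 and 7.78 there and at 3.20 to 4.60 elsewhere. Replicates of MK2-/- BMDM came from animals of different ages, hence from separate mice. The limma p-values and the standard errors rest on 1 spread per gene estimated over all 22 arrays, not on the MK2-/- arrays alone. For Il6, the SD was 0.17 on MK2-/- LPS, 0.618 on MK2-/- medium and 2.925 on wt medium arrays. Same-numbered LPS and medium arrays share an age, but the labels do not say whether they came from 1 animal. Markers fixed for macrophages (9 of 10 on the array, among them Csf1r, Adgre1, Lyz2 and Cd14) were well above background on all 8 MK2-/- arrays, with a summed level of 19.06 to 19.28 after LPS and 19.23 to 19.51 in medium; 3 of the 9 were called higher and 5 lower. In arrays of whole cultures, fewer cells of a type and less RNA per cell cannot be told apart.

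The targeted gene was examined first. Mapkapk2, which encodes MK2, was still measured above background on every MK2-/- array. Its log2 signal was 11.71, 11.52, 11.25 and 11.95 after LPS and 8.95, 9.01, 8.70 and 8.86 in medium, below the 14.28 to 15.33 of LPS-treated and the 10.77 to 12.40 of medium-treated wt arrays. Where its probe lies relative to the deleted part of the gene is not given in the sources used here, so this signal does not test the deletion. The remaining transcript rose after LPS by 2.73 ± 0.29 (standard error; adjusted p 2.45e-07). Mapkapk3, which encodes MK3, stood at 12.47, 12.57, 11.91 and 12.44 after LPS and 13.16, 12.39, 12.94 and 13.10 in medium. These groups overlapped, and the difference of -0.55 ± 0.22 missed the threshold (adjusted p 0.051), although it was called in some of the alternatives.

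In MK2-/- BMDM, 9986 of 22371 genes were called after LPS, which is 44.6% of all genes tested; 3917 were higher (17.5%) and 6069 lower (27.1%). At least 4-fold higher were 1153 genes (5.15%) and at least 4-fold lower 1827 (8.17%), and beyond 16-fold 325 rose and 272 fell. The 4 LPS values did not overlap the 4 medium values for 8497 of the called genes, against 41.8% of all genes tested, called or not. The median SD between arrays of a group, over all genes tested, was 0.34 after LPS and 0.35 in medium. The median absolute difference was 0.64 over all genes tested. It was 1.36 among called genes, which the test picks for a large difference. Of the called genes, 240 that rose were not well above background on any medium array and 284 that fell were not well above background on any LPS array. Quantile normalisation sets all arrays to 1 distribution. Scaling to the 75th percentile of each array instead moved the median difference over all genes from -0.01 to 0.28 and the split of called genes to 5332 higher and 4621 lower, so that 53.6% instead of 39.2% of called genes were higher. Without the pair of arrays with low Y-linked signal, 9210 genes were called (3779 higher, 5431 lower). LPS replicate 3 and medium replicate 2 stood apart on the second principal component (8.43% of the variance, against 70.5% for the first, which separated the treatments), and without these arrays 10134 genes were called.

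**Figure D1:**
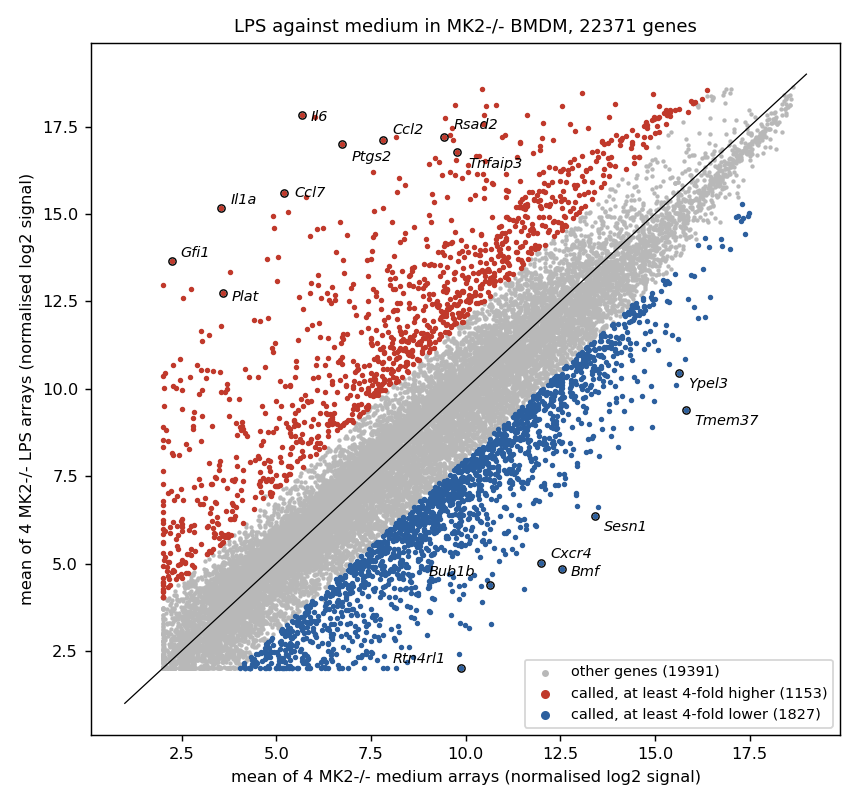
Mean normalised log2 signal of the 4 MK2-/- LPS arrays (vertical axis) against that of the 4 MK2-/- medium arrays (horizontal axis) for 22371 genes, with the line of equal signal. Red points are the 1153 genes called and at least 4-fold higher, blue points the 1827 called and at least 4-fold lower, and Il6 lies highest above the line.

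Promoters of genes that rose held the motifs of NF-kB, ISRE and AP-1 more often than promoters at large. RefSeq promoters (GRCm38.p6, 250 bases before to 50 after each start, either strand searched, overlaps between motifs allowed) were found for 800 genes that rose at least 4-fold, 1334 that fell at least 4-fold and 14566 tested genes. NF-kB, the main factor downstream of MyD88, was searched as GGANNTTCC and was in 7.18% of promoters of risen genes, 4.38% of fallen genes and 4.38% of all tested genes. ISRE, the site of interferon-activated factors, was searched as GAAANNGAA and was in 13.8%, 5.59% and 7.71%. AP-1, the Fos and Jun site, was searched as TGANTCA and was in 10.1%, 5.01% and 6.58%. E2F, the site of the factors that drive replication genes, was searched as TTTNNCGC and was in 5.15% of risen, 8.47% of fallen and 6.84% of all promoters. The cAMP site CRE (TGACGTCA) was in 3.20%, 2.30% and 2.51%, and the E-box (CACGTG) in 7.86%, 9.74% and 8.53%. These shares describe letters within a window and carry no test. The promoters of Il6, Ifit1 and Mcm6 are shown as an example of each of 3 motifs, 5′ to 3′ on the strand of the gene, with the matched letters in capitals. Il6 lies on the plus strand at chr5:30012864-30013163 with 1 NF-kB match, Ifit1 on the plus strand at chr19:34640639-34640938 with 3 ISRE matches, and Mcm6 on the minus strand at chr1:128359656-128359955 with 3 E2F matches.
Il6: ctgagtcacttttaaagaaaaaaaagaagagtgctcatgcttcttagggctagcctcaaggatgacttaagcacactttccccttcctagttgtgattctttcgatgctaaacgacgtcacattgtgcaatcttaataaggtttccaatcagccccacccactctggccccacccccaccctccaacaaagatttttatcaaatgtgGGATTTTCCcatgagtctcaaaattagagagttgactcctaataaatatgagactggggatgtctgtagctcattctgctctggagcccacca
Ifit1: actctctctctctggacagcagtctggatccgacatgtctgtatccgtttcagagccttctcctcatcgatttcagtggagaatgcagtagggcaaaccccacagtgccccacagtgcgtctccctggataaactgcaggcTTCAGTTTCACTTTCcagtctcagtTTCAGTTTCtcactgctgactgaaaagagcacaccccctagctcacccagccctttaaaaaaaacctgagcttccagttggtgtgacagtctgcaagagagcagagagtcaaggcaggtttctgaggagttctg
Mcm6: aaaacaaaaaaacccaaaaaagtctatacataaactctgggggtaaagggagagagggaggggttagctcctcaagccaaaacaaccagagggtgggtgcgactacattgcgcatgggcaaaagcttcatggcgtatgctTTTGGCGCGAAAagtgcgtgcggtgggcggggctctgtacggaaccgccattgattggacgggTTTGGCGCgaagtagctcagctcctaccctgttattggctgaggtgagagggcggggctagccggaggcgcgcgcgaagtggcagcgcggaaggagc

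The largest rise among genes whose groups did not overlap was that of Il6, the acute-phase cytokine. Its log2 signal was 18.02, 17.83, 17.87 and 17.60 after LPS and 5.85, 5.63, 6.36 and 4.88 in medium. All LPS arrays lay far above all medium arrays, and the difference of 12.15 ± 0.87 is a 4543-fold rise (adjusted p 1.49e-09). Il1a, an interleukin released by damaged and activated cells, followed with 15.56, 15.55, 15.51 and 14.09 after LPS and 3.61, 2.17, 4.60 and 3.80 in medium, a difference of 11.63 ± 0.77 (adjusted p 5.58e-10), but was well above background on 1 of 4 medium arrays. Several of the largest rises started from a medium signal short of well above background on all 4 arrays, so only a lower bound of the fold is known. Gfi1, a zinc-finger repressor of myeloid genes, was at 13.89, 13.99, 13.47 and 13.28 after LPS and at most 2.94 in medium, a rise of at least 1139-fold (adjusted p 6.38e-09). Shisa3 rose at least 702-fold, the long non-coding RNA U90926 at least 586-fold, and Plat, which encodes tissue plasminogen activator, at least 473-fold. Edn1, the vasoconstrictor endothelin, rose by 9.56 and was well above background on 1 of 4 medium arrays.

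All 21 inflammatory cytokine genes tested were called higher and none lower, with a median difference of 6.00, beside -0.01 over all genes tested. Il12b was on the list of 22 but was not among the genes tested. The lists named here and below were chosen with earlier results of these data known, and a list's count is read against the 17.5% of all genes higher and the 27.1% lower. Counts under scaling to the 75th percentile are read against 5332 higher and 4621 lower of 22371 genes, and medians against 0.28. Il1b, the pyrogenic interleukin processed by the inflammasome, was at 18.27, 18.14, 18.31 and 17.80 after LPS and 10.71, 9.29, 9.26 and 9.63 in medium, and rose by 8.41 (adjusted p 8.99e-09). Csf2, which encodes GM-CSF, was at 11.22, 10.19, 11.15 and 9.28 after LPS and not well above background in medium, so that it rose at least 124-fold. Tnf, the classical target of tristetraprolin, rose by 6.62 ± 0.44, with 15.54 to 16.60 after LPS and 8.66 to 10.72 in medium. The antagonist Il1rn rose by 8.08, the IL-10 family members Il10 and Il19 by 6.00 and 7.10, and a second probe of Il19 gave 11.63. Il10, which restrains macrophage activation, spread from 11.59 to 13.71 after LPS, with every LPS array above the 6.29 to 6.87 in medium. The interleukin subunits Il12a and Il23a and the alarmin Il33 rose at least 8.99-fold, 19.1-fold and 32.8-fold, and Csf3, the granulocyte growth factor, at least 63.8-fold. The smallest change was that of Lif (1.66, 3 LPS and 4 medium values, adjusted p 0.0213), whose call was lost in some of the alternatives.

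Among 23 chemokine genes, 18 were higher and 1 lower, with a median of 5.55. Ccl2, the monocyte attractant, was at 17.37, 16.47, 17.53 and 17.12 after LPS and 7.47, 8.10, 7.56 and 8.16 in medium, a rise of 9.30 ± 0.43 (adjusted p 1.28e-11), and Ccl7, a close relative, rose by 10.41. The neutrophil attractants Cxcl1, Cxcl2 and Cxcl3 rose by 9.65, 8.51 and 9.70. For Cxcl3 the arrays gave 16.38, 15.74, 15.74 and 14.10 after LPS and 6.98, 4.89, 5.27 and 6.02 in medium. The T-cell attractants Cxcl9 and Cxcl10, which interferons are known to induce, rose by 9.75 and 7.32. Cxcl9 was the more uneven in medium, with 4.64, 6.86, 4.98 and 4.76, of which replicate 2 was the highest, against 14.16, 15.29, 15.28 and 15.52 after LPS. Ccl22, a ligand of CCR4, was at 13.74, 13.18, 11.94 and 11.48 after LPS and rose at least 543-fold. Ccl7, Cxcl1 and Cxcl9 were well above background on 3 of 4 medium arrays. Cxcl14 was the only chemokine gene called lower, at 10.13, 10.74, 12.09 and 11.99 after LPS and 12.99, 14.18, 14.03 and 14.19 in medium (-2.61, adjusted p 7.04e-05). Cxcl16 (0.34) was not called, but was under scaling to the 75th percentile (1.20).

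Receptors for chemokines went in both directions, with 6 of 12 higher and 3 lower. Cxcr4, the receptor of CXCL12 that holds cells in the marrow, had the largest fall of the list. It was at 11.90, 11.85, 11.92 and 12.32 in medium and 4.87, 5.14, 3.43 and 6.59 after LPS, a difference of -6.99 ± 0.57 (adjusted p 8.03e-09), and it was well above background on 3 of 4 LPS arrays. Cx3cr1, the fractalkine receptor (-3.83), and Ccr2, the receptor of CCL2 (-3.62), also fell. In the other direction Ccr7, the lymph-node homing receptor of mature antigen-presenting cells, rose by 6.43, with 13.25 to 14.82 after LPS against 7.03 to 8.07 in medium, and Ccrl2, an atypical receptor for chemerin, by 4.67.

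All 34 antiviral genes of the type I interferon response that were tested were called higher, with a median of 3.89. Rsad2, which encodes the antiviral enzyme viperin, was at 17.25, 17.06, 16.86 and 17.70 after LPS and 10.15, 9.71, 9.20 and 8.71 in medium, a rise of 7.77 ± 0.54 (adjusted p 8.34e-10). Its neighbour and partner Cmpk2 rose by 7.40, the oligoadenylate synthetase-like gene Oasl1 by 7.34 and the ISG15 protease Usp18 by 6.72. Ifit1, whose promoter is shown above, rose by 6.45, with 15.16 to 15.88 after LPS against 8.55 to 9.96 in medium. The smallest rise was that of Irf9, the DNA-binding subunit of the interferon-activated factor ISGF3, at 0.47 (adjusted p 0.0254), with overlapping groups, and its call was lost with the replicate number as a block (adjusted p 0.0919). Ifnb1, the interferon that drives this programme in macrophages, was at 8.90, 7.41, 8.76 and 9.68 after LPS and 3.92, 4.91, 4.05 and 2.92 in medium, a rise of 4.74 ± 0.69 (adjusted p 1.12e-05), and was well above background on 1 of 4 medium arrays.

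Guanylate-binding proteins and immunity-related GTPases, which attack vacuoles and membranes of intracellular microbes, gave 13 of 14 genes higher and none lower, with a median of 4.52. Gbp5 was at 16.61, 16.78, 16.25 and 16.77 after LPS and 9.62, 9.75, 8.69 and 8.73 in medium (7.40, adjusted p 2.47e-09), and neither treatment came near the other. Gbp2 was at 17.63, 17.79, 17.36 and 17.56 after LPS and 11.52, 10.21, 10.05 and 10.05 in medium (7.13), with medium replicate 1 the highest of its group. Gbp6 and Gbp7 rose by 6.86 and 6.52, and a second probe of Gbp6 gave 4.15. Gbp8, with 0.49, was not called (adjusted p 0.667).

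**Figure D2:**
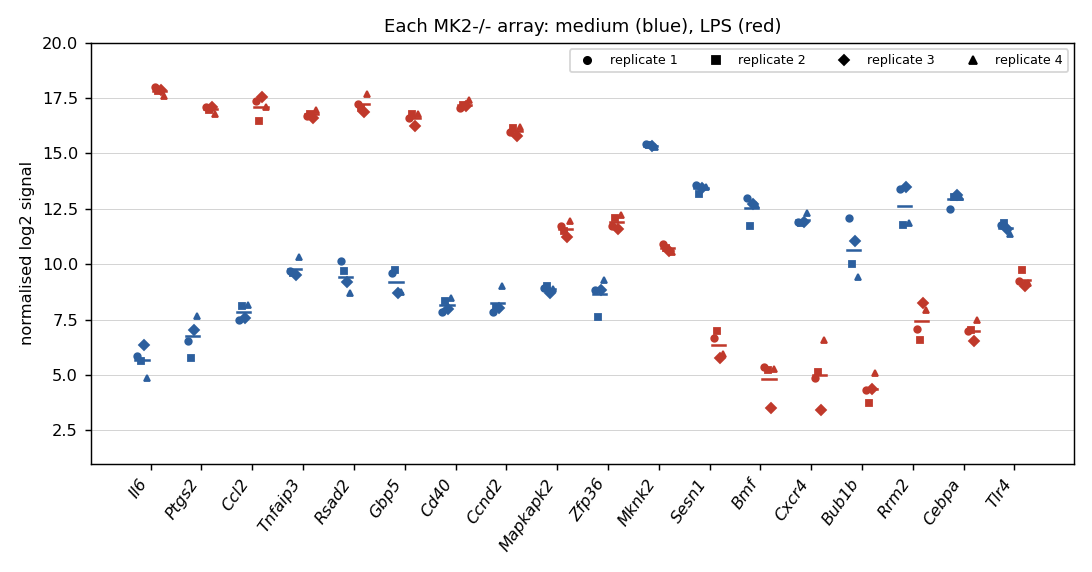
Normalised log2 signal of 18 genes on each MK2-/- array, medium in blue and LPS in red, with 1 symbol per replicate and a bar at the mean of 4 arrays. The genes from Il6 to Zfp36 lie higher on all LPS arrays and those from Mknk2 to Tlr4 lower on all LPS arrays.

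Negative regulators of LPS and cytokine signalling were mostly higher, 19 of 25 against 2 lower, with a median of 3.18. Tnfaip3, which encodes the ubiquitin-editing enzyme A20, was at 16.71, 16.78, 16.60 and 16.98 after LPS and 9.69, 9.60, 9.50 and 10.35 in medium. The arrays of each treatment lay within 1 unit of each other, and the rise of 6.98 ± 0.32 (adjusted p 1.28e-11) was among the 10 rises with the highest t. Dusp2, a MAP kinase phosphatase, rose by 7.66, and the cytokine receptor inhibitors Socs3 and Socs1 by 7.45 and 6.91. Nfkbia, the NF-kB inhibitor that is resynthesised during signalling, rose by 2.97. The 2 genes called lower were Sigirr, a member of the interleukin-1 receptor family (-2.34), and the deubiquitinase gene Cyld (-2.26), for which a second probe gave 0.18 and was not called.

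Transcription factor genes of the NF-kB, AP-1, C/EBP and IRF families gave 15 of 24 higher and 5 lower, with a median of 1.49. Batf, an AP-1 family member, was at 14.63, 14.61, 14.11 and 14.34 after LPS and 8.20, 7.52, 7.18 and 7.49 in medium (6.82, adjusted p 4.89e-11). The NF-kB genes Nfkb2 and Nfkb1 rose by 3.85 and 2.84, and Rel rose at least 17.02-fold. Cebpa, a factor of myeloid differentiation, went the other way, at 12.49, 13.05, 13.12 and 13.05 in medium and 6.99, 7.03, 6.53 and 7.49 after LPS, a difference of -5.92 with groups far apart (adjusted p 4.62e-11). The AP-1 genes Jun (-2.09) and Fos (-2.04) were also lower at 6 h.

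Of 27 genes for LPS sensors, adaptors and the inflammasome, 20 were higher and 4 lower, with a median of 0.97. The cytosolic peptidoglycan sensors Nod2 and Nod1 rose by 4.38 and 4.16, the cytosolic LPS receptor Casp4 by 4.19, and the inflammasome sensor Nlrp3 by 3.62. Nod1 was at 12.79, 12.88, 12.45 and 13.46 after LPS and 8.61, 8.60, 8.83 and 8.90 in medium. Tlr4 itself, the receptor of LPS, fell from 11.79, 11.85, 11.59 and 11.35 in medium to 9.26, 9.73, 9.04 and 9.14 after LPS (-2.35 ± 0.25, adjusted p 1.93e-07), while its co-receptor Cd14 rose by 1.93. Tlr13, which senses bacterial ribosomal RNA, fell by 3.47, and the kinase gene Irak4 fell by 1.57.

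The list of the p38 pathway and of mRNA stability regulators, which holds the targeted kinase, split into 8 higher and 10 lower of 26. Its median of -0.14 became 0.22 under scaling to the 75th percentile, beside 0.28 over all genes. Zfp36, which encodes tristetraprolin, was at 11.74, 12.09, 11.60 and 12.24 after LPS and 8.86, 7.60, 8.82 and 9.27 in medium, a rise of 3.28 ± 0.33 (adjusted p 9.95e-08). Its relatives Zfp36l2 (-4.20) and Zfp36l1 (-3.40) fell. For Zfp36l2, every LPS array (11.61, 11.39, 10.99 and 11.66) lay below every medium array (15.81, 15.34, 15.56 and 15.75). Mapk14, which encodes p38-alpha, the kinase that activates MK2, was at 13.84, 13.02, 13.73 and 13.69 in medium and 10.78, 10.90, 10.56 and 10.14 after LPS (-2.97, adjusted p 1.94e-07). Mknk2, an eIF4E kinase downstream of MAP kinases, had one of the falls with the most extreme t, from 15.42, 15.36, 15.35 and 15.31 to 10.93, 10.74, 10.62 and 10.57 (-4.64 ± 0.18, adjusted p 4.40e-12). Zc3h12c, an RNase of the regnase family, rose by 1.59. Hspb1, which encodes a small heat shock protein phosphorylated by MK2, was not called (-0.01). Its arrays were spread widely within a treatment, with 7.46 to 10.83 after LPS and 7.13 to 10.79 in medium.

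Enzymes that make inflammatory mediators gave 10 of 17 higher and 5 lower, with a median of 1.22. Ptgs2, the inducible cyclooxygenase, was at 17.11, 16.98, 17.08 and 16.79 after LPS and 6.53, 5.76, 7.02 and 7.65 in medium, a rise of 10.25 ± 0.70 (adjusted p 7.80e-10). Ptgs1, the constitutive cyclooxygenase, fell by 2.58, with 10.15 to 10.93 after LPS against 12.91 to 13.37 in medium. The thromboxane synthase gene Tbxas1 (-2.06) and the leukotriene gene Alox5ap (-1.96) were also lower. Acod1, which makes itaconate, was among the brightest signals of the array at 18.60, 18.52, 18.59 and 18.57 after LPS, and rose by 8.13 from 11.24, 11.12, 9.27 and 10.12 in medium. Nos2, the inducible nitric oxide synthase, rose by 7.44, and Gch1, which starts the synthesis of its cofactor tetrahydrobiopterin, by 5.20 ± 0.21. Hdc, the histamine-forming enzyme, was at 15.23, 15.18, 14.73 and 14.64 after LPS and 5.73, 4.23, 5.30 and 4.35 in medium (10.04, adjusted p 2.76e-10), and was well above background on 3 of 4 medium arrays. Hdc is also known from mast cells and basophils. Of the 5 markers of these cells, Cpa3, Fcer1a and Ms4a2 were not well above background on any of the 8 arrays, and of the 3 markers tested 1, Kit, was called higher (2.32). Their summed level was 6.34 to 6.77 after LPS and 4.79 to 5.86 in medium, and its part in the rise of Hdc was not tested.

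Surface molecules that instruct T cells gave 12 of 17 higher and 3 lower, with a median of 4.15. Cd40, the receptor for T-cell help, was at 17.07, 17.17, 17.15 and 17.40 after LPS and 7.83, 8.33, 7.97 and 8.50 in medium (9.04 ± 0.52, adjusted p 1.08e-10). Slamf1 and Tnfsf4, a self-ligand receptor and the OX40 ligand, rose at least 140-fold and 117-fold, and the adhesion molecule Vcam1, measured on 3 of 4 medium arrays, rose by 8.05, or by 4.33 on a second probe. Cd274, which encodes PD-L1, and Cd86 rose by 6.71 and 3.09. Cd80 was called lower by its brightest probe (-3.15), but a second probe was called higher (2.33), so its direction depended on the probe. Genes for presentation on MHC class I gave 10 of 17 higher and 1 lower, and 15 higher and none lower under scaling to the 75th percentile. Their activator Nlrc5 rose by 4.58 (1.32 on a second probe) and the peptide transporter Tap1 by 3.35, whereas the class I gene H2-D1 was not called (-0.15) but was called higher under that scaling (0.63, adjusted p 0.00721). On MHC class II, 1 of 10 genes was called, the thiol reductase gene Ifi30 (-1.36). The list's median of -0.08 became 0.30 under the other scaling, beside 0.28 over all genes.

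Phagocytic and scavenger receptors gave 8 of 23 higher and 7 lower. Olr1, which binds oxidised lipoprotein, rose at least 40.0-fold, Timd4, which binds phosphatidylserine and was well above background on 1 of 4 medium arrays, rose by 4.04, and the inhibitory Fc receptor Fcgr2b by 4.22. Mertk, a receptor for apoptotic cells (-2.44), and the scavenger receptors Stab1 (-2.28) and Lrp1 (-2.07) fell. Of 18 genes of alternative activation, 1 was higher and 9 lower, or 2 and 5 under scaling to the 75th percentile. The gene called higher was Il4ra, the receptor of interleukin-4, at 11.29, 12.42, 11.83 and 12.16 after LPS and 9.34, 9.13, 9.03 and 9.01 in medium (2.80, adjusted p 2.14e-07). Smad3 (-3.14) and Tgfbr1 (-2.99) of the TGF-beta pathway and Pparg (-2.90), a lipid-activated nuclear receptor, fell, and a second probe of Smad3 gave -1.73.

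Among receptors for nucleotides, adenosine, metabolites and chemoattractants, 11 of 20 were higher and 4 lower, with a median of 1.85. The formyl peptide receptors Fpr2 and Fpr1 rose by 8.64 and 7.54, Hcar2, a receptor of niacin and ketone bodies, by 8.48, and the adenosine receptor Adora2a by 6.44. Hcar2 was at 14.48, 14.54, 14.18 and 14.29 after LPS and 5.91, 5.69, 5.41 and 6.59 in medium. Lower were Gpr34, a receptor of lysophosphatidylserine measured on 2 of 4 LPS arrays (-5.40), and the ATP-gated channel P2rx7 (-4.70), which was at 13.03, 12.18, 12.94 and 13.01 in medium and 8.46, 8.77, 6.89 and 8.25 after LPS and gave -2.52 and -1.53 on other probes. Matrix proteases and the urokinase system gave 11 of 19 higher and 4 lower, with a median of 2.23. The collagenase gene Mmp13 was at 17.85, 17.78, 17.89 and 17.43 after LPS and 9.23, 8.93, 9.88 and 9.78 in medium (8.28, adjusted p 1.61e-09). Serpinb2, a plasminogen activator inhibitor, rose at least 228-fold. Its target Plau, the urokinase gene, fell by 4.13, from 7.39, 8.96, 8.27 and 8.96 in medium to 4.40, 2.66, 4.40 and 5.61 after LPS, with 2 of 4 LPS arrays well above background.

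**Figure D3:**
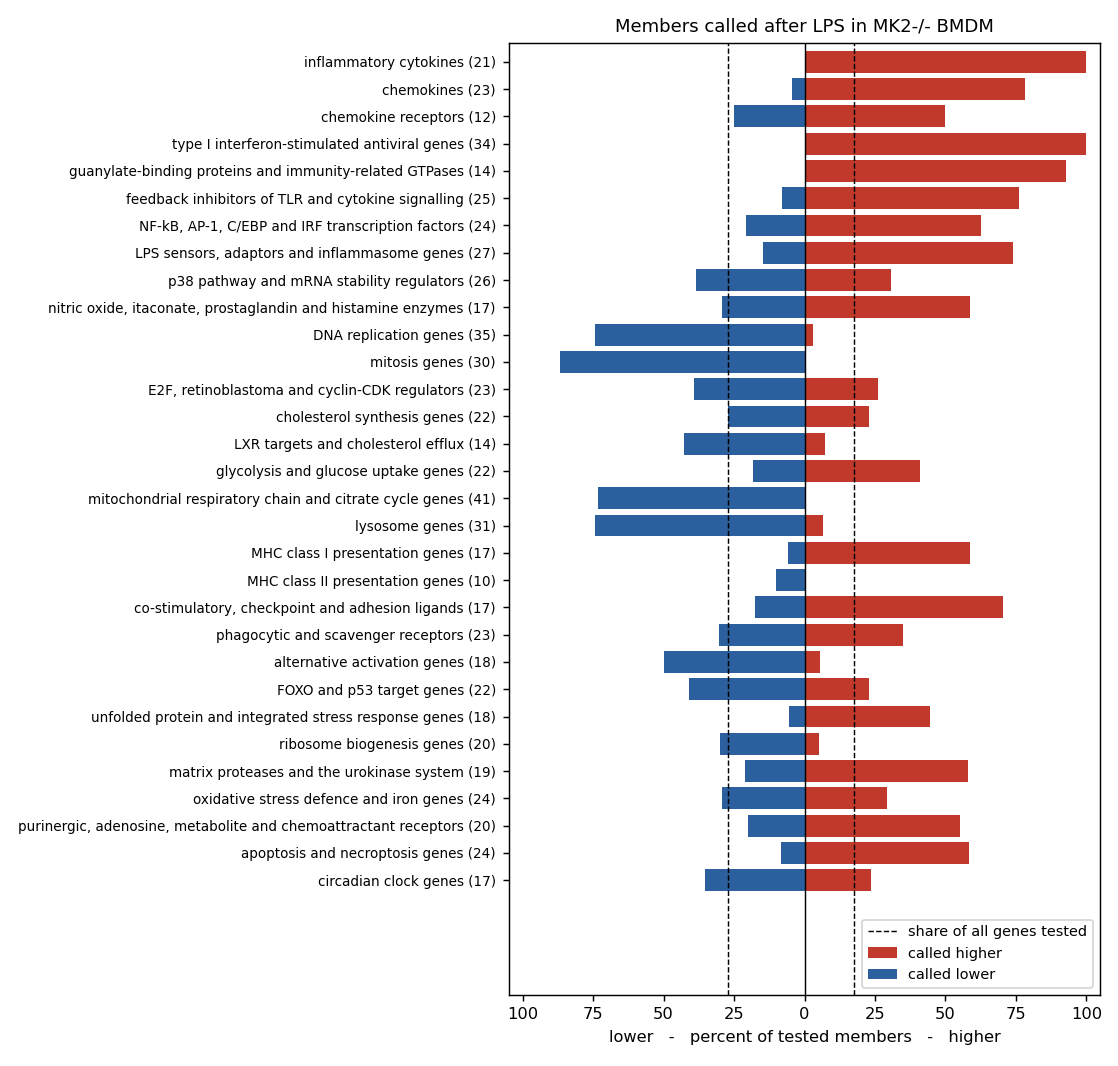
Percent of the tested members of each of 31 gene lists (tested members in brackets) that were called higher (red bars, to the right) or lower (blue bars, to the left) after LPS in MK2-/- BMDM, with dashed lines at the 17.5% and 27.1% of all genes called higher and lower. Cytokine and antiviral genes reach 100% higher, and the mitosis, DNA replication, respiratory chain and lysosome lists extend farthest to the left.

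Most genes of cell division that were tested were lower after LPS. Of 30 mitosis genes, 26 were lower and none higher, with a median of -3.89. Bub1b, a kinase of the spindle checkpoint, was at 12.08, 10.02, 11.07 and 9.43 in medium and 4.32, 3.73, 4.39 and 5.08 after LPS, a difference of -6.27 ± 0.51 (adjusted p 6.89e-09). All LPS arrays lay below all medium arrays, and medium replicate 1 was the highest. Bub1b and Kif11 were well above background on 2 of 4 LPS arrays and Kif23 on 3. The kinesin genes Kif23 (-5.79) and Kif11 (-5.17), the phosphatase gene Cdc25b (-5.72) and the mitotic kinase gene Plk1 (-4.29) fell. Outside the list, the spindle protein gene Aspm, the centrosome kinase gene Nek2 and Arhgef39, an exchange factor gene, were not well above background on any LPS array and fell at least 67.7-fold, 34.6-fold and 112-fold. The 4 medium arrays differed in the level of the mitosis list. Relative to the mean of the medium arrays, the median member was at 1.52, -0.42, 0.27 and -1.24 in medium and at -2.82, -4.43, -3.38 and -3.94 after LPS. Mad2l1, of the spindle checkpoint, was not called (-0.72), nor was Mki67 (-0.82, adjusted p 0.125).

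Of 35 DNA replication genes, 26 were lower and 1 higher, with a median of -2.04. The other 8 were not called, among them Pcna (-0.39, adjusted p 0.288). Rrm2, the regulated subunit of ribonucleotide reductase, was at 13.41, 11.77, 13.49 and 11.86 in medium and 7.08, 6.60, 8.24 and 7.92 after LPS (-5.17 ± 0.68, adjusted p 3.73e-06). The origin-licensing factor Cdc6, measured on 1 of 4 LPS arrays, fell by 3.63, and the polymerase subunit Pold1 (-3.58) and the thymidine kinase Tk1 (-3.57) fell as well. The helicase subunits Mcm2 (-3.06) and Mcm6 (-1.88) were lower, and Mcm6, whose promoter is shown above, lost its call under scaling to the 75th percentile (-1.34, adjusted p 0.069). Tyms, thymidylate synthase, was the only gene of the list called higher, at 9.44, 9.41, 9.42 and 9.91 after LPS and 7.73, 7.61, 7.97 and 7.61 in medium (1.81, adjusted p 3.15e-06). Regulators of the cycle split into 6 higher and 9 lower of 23, with a median of 0.00. This median became 0.28 under the other scaling, as did the median over all genes. Ccnd2, a D-type cyclin, rose from 7.86, 8.08, 8.01 and 9.03 in medium to 15.97, 16.13, 15.78 and 16.18 after LPS (7.77 ± 0.46, adjusted p 1.50e-10), and its partner Cdk6 by 2.95. The inhibitor Cdkn1a rose by 2.85, but a second probe gave 0.83 and was not called. E2f2, an activator of replication genes (-5.94), the inhibitor Cdkn2c (-4.17) and the repressor E2f6 (-3.13) fell.

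**Figure D4:**
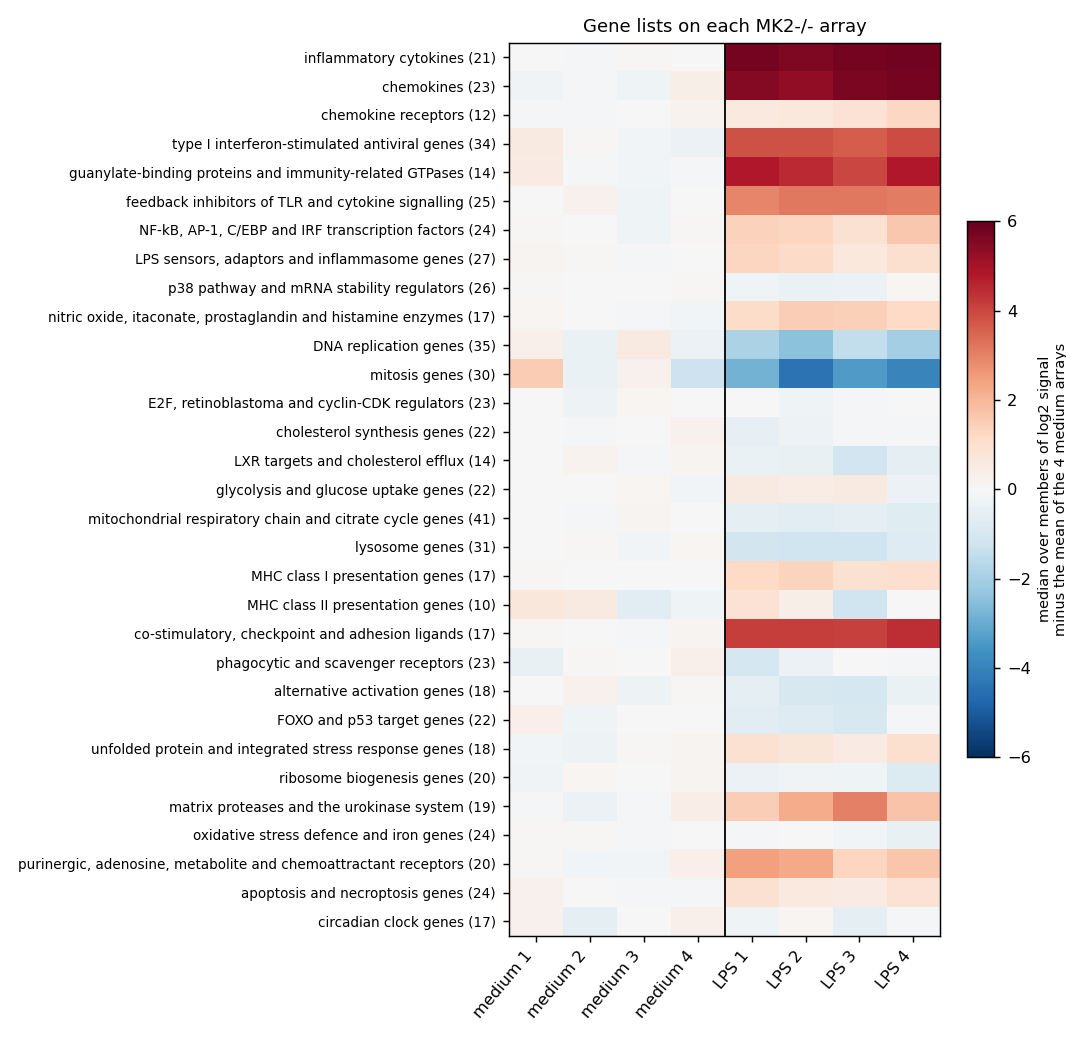
For each of 31 gene lists (rows, tested members in brackets) and each MK2-/- array (columns), the median over members of the log2 signal minus that gene's mean over the 4 medium arrays, on a colour scale from -6 to 6. The mitosis row shows the largest spread between medium arrays, from -1.24 to 1.52.

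Lists of energy metabolism had medians closer to 0. All 30 called genes of the respiratory chain and citrate cycle, of 41 tested, were lower, with a median of -0.64. Under scaling to the 75th percentile 7 were higher and 9 lower. The median was then -0.07, or -0.35 relative to all genes. Idh1, a cytosolic isocitrate dehydrogenase, was at 11.16, 10.22, 10.76 and 10.41 in medium and 7.77, 7.81, 6.82 and 7.12 after LPS (-3.26, adjusted p 7.34e-09), and Fh1, fumarase, fell by 1.97. Sdha, a subunit of succinate dehydrogenase used as a reference gene, was at 13.40, 13.49, 13.47 and 13.44 after LPS and 13.85, 13.39, 14.21 and 14.09 in medium. These groups overlapped, and its -0.43 (adjusted p 0.0248) became 0.23 under the other scaling and was not called with the replicate block (adjusted p 0.162). Glycolysis and glucose uptake gave 9 of 22 higher and 4 lower, or 14 and 1 under that scaling. Pfkfb3, which drives glycolytic flux, rose by 5.28, the transporters Slc2a6 and Slc2a1 by 3.28 and 3.04, and Hif1a, the hypoxia factor, by 2.84. Pfkm fell by 2.27, and Gapdh was not called (-0.16) but was called higher under that scaling (0.60, adjusted p 0.0445).

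Lysosome genes gave 23 of 31 lower and 2 higher, with a median of -1.18. Under scaling to the 75th percentile 12 were lower and 5 higher. The median was then -0.45, or -0.73 relative to all genes. Tfeb, the factor that controls many of them, was at 9.79, 10.17, 9.67 and 9.74 in medium and 6.64, 6.53, 5.47 and 6.57 after LPS (-3.54 ± 0.23, adjusted p 4.54e-10). The lipase Lipa (-2.34) and the sialidase Neu1 (-2.13) fell, while the cathepsin gene Ctsc rose by 2.60. Cholesterol synthesis split into 5 higher and 6 lower of 22, with a median of -0.28. This median became 0.01 under the other scaling, beside 0.28 over all genes. Dhcr7, which acts at the end of the pathway, fell by 3.14. Among 14 targets of the sterol receptor LXR and genes of cholesterol efflux, 1 was higher and 6 lower, or 1 and 3 under the other scaling. Ch25h, which makes an antiviral hydroxycholesterol, rose by 6.38, with 15.28 to 17.31 after LPS against 8.28 to 10.86 in medium. The esterase Nceh1 (-3.64) and the desaturase Scd2 (-3.45) fell, Scd2 with 3 of 4 LPS arrays well above background. The transporter Abcg1 was at 11.46, 12.35, 9.33 and 11.62 after LPS and 13.94, 14.16, 13.37 and 13.41 in medium (-2.53), and its call was lost without the arrays apart on the second component (adjusted p 0.053).

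Targets of FOXO and p53 split into 5 higher and 9 lower of 22. Sesn1, a stress-induced inhibitor of growth signalling, was at 13.60, 13.17, 13.45 and 13.47 in medium and 6.69, 6.99, 5.77 and 5.96 after LPS, a difference of -7.07 ± 0.28 (adjusted p 4.40e-12) with the treatments far apart. Trp53inp1 (-5.56) and Zmat3 (-3.80), both p53 targets, and Klf2 (-3.32), a factor of quiescence, fell. A second probe of Trp53inp1 gave -2.003. Gadd45b, which NF-kB is known to induce, rose by 5.26. Genes of apoptosis and necroptosis gave 14 of 24 higher and 2 lower, with a median of 0.67. Cflar, which encodes the caspase-8 inhibitor c-FLIP, rose by 5.68, the adaptor Traf1 by 5.59 and the death receptor Fas by 4.06. Bmf, a BH3-only killer protein, had the largest fall of any list member, from 13.00, 11.74, 12.74 and 12.66 in medium to 5.35, 5.21, 3.53 and 5.28 after LPS (-7.69 ± 0.42, adjusted p 6.18e-11), with LPS replicate 3 the lowest.

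Stress genes of the unfolded protein and integrated stress response gave 8 of 18 higher and 1 lower, among them Chac1 (3.76), which degrades glutathione, the phosphatase subunit Ppp1r15a (2.75), and Psat1 (2.47), for the synthesis of serine. Oxidative defence and iron genes gave 7 higher and 7 lower of 24, or 10 and 3 under scaling to the 75th percentile. There the median of -0.27 became 0.37, beside 0.28 over all genes. Lcn2, which binds bacterial siderophores, rose by 5.98, the cystine transporter Slc7a11 by 5.87 and the mitochondrial superoxide dismutase Sod2 by 3.48. Lcn2 is also known from neutrophils. Of 9 neutrophil and precursor markers tested, 2 were higher and 2 lower, and Prtn3 was not well above background on any of the 8 arrays. The summed level of these markers was 12.26 to 13.58 after LPS and 11.92 to 13.33 in medium. Its part in the rise of Lcn2 was not tested. Slc40a1, the iron exporter ferroportin, fell by 2.48, and Gclm, for glutathione synthesis, fell by 1.97. Clock genes gave 4 of 17 higher and 6 lower. Tef (-4.67) and Dbp (-4.12), output factors of the clock, fell, while their competitor Nfil3 rose by 3.45. Ribosome biogenesis gave 1 of 20 higher and 6 lower, or 1 and 3 under the other scaling. Dkc1, which encodes the pseudouridine synthase dyskerin, fell by 1.73, and Wdr43, a factor of small-subunit assembly, rose by 1.91.

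Besides the lists, the largest falls were of genes with varied roles. Rtn4rl1, a Nogo receptor homologue, was at 10.04, 10.11, 9.79 and 9.63 in medium and not well above background on any LPS array, a fall of at least 83.6-fold (adjusted p 9.83e-11). The potassium channel Kcnj10 was at 8.88, 8.88, 10.56 and 11.04 in medium and 2.03, 2.01, 3.53 and 2.03 after LPS (-7.44), with 1 of 4 LPS arrays well above background. Abhd15 (3 of 4 LPS arrays) fell by 7.27, and a second probe gave -3.04, whereas Tmem86a, a multipass membrane protein gene, fell by 6.89. Rasgrp3, a Ras activator, and Fam78a were not well above background after LPS and fell at least 95.4-fold and 87.1-fold, although a second probe of Fam78a gave -0.53 and was not called.

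Some smaller differences were among those with the most extreme t, which is the difference divided by its standard error. Among rises, Malt1, the paracaspase of antigen receptor signalling, was at 15.15, 15.08, 14.31 and 14.80 after LPS and 9.91, 9.21, 9.57 and 9.80 in medium (5.21 ± 0.21, adjusted p 4.40e-12). The carbonic anhydrase gene Car13 rose by 5.46 ± 0.24. Among falls, Ypel3 was at 15.75, 15.75, 15.43 and 15.61 in medium and 10.35, 10.23, 10.22 and 10.97 after LPS (-5.20 ± 0.19, adjusted p 4.40e-12). Lpar6, a receptor of lysophosphatidic acid, fell by 5.32 ± 0.21, and the receptor adaptor Arrb1 fell by 4.34 ± 0.18.

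The size of the response was then set beside that of the other genotypes, by a test of the difference of the LPS effect. Against wt, no gene was called by limma (0 of 22371, or 0%), and 1685 genes had an unadjusted p below 0.05; 96 were called with array weights. Of the 2980 genes called and changed at least 4-fold in MK2-/- BMDM, 2806 were also called with the same sign in wt and 2850 in MK2/3-/- BMDM, and 56 in neither. Each genotype lay on a slide of its own, so genotype and slide cannot be told apart. Medium signals of the genes that rose most in MK2-/- BMDM are given as a description, since choosing them by that rise favours a low MK2-/- medium signal. The median level of the 15 largest rises was 4.23 to 4.76 on MK2-/- medium arrays, 5.49 to 9.35 on wt medium arrays and 4.77 to 5.29 on MK2/3-/- medium arrays, and 13.37 to 15.23 on all LPS arrays. Il6 was at 8.53, 6.41, 10.02 and 13.37 on wt medium arrays and at 17.52 to 17.81 on wt LPS arrays, so that its rise was 8.11 in wt and 12.15 in MK2-/- BMDM (adjusted p of the difference 0.434). Wt medium replicate 4 was the highest of its group. Without it, which was chosen after the values were seen, the rise of Il6 in wt was 9.37, its difference between genotypes 2.78, and 0 genes were called.

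**Figure D5:**
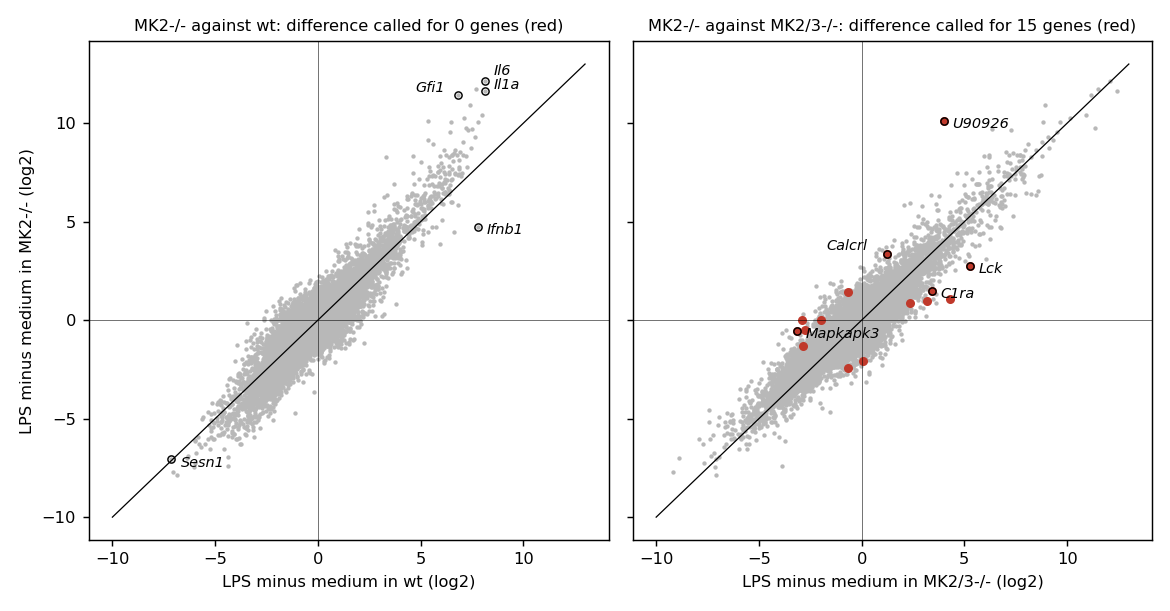
LPS minus medium (log2) in MK2-/- BMDM on the vertical axes against the same difference in wt (left) and MK2/3-/- (right) BMDM on the horizontal axes for 22371 genes, with the line of equal response. Red points are genes whose difference between genotypes was called, 0 against wt and 15 against MK2/3-/-, and Il6, Il1a and Gfi1 lie above the line on the left.

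Genes assayed by the study in single-gene measurements were compared in the same way, except Il12b, which was not among the genes tested here. Ifnb1 rose by 7.77 in wt, 4.74 in MK2-/- and 6.74 in MK2/3-/- BMDM. Its LPS arrays were at 10.79, 10.89 and 12.89 in wt, above the 7.41 to 9.68 of MK2-/-, and the difference between these responses of -3.04 was not called (adjusted p 0.456). Il4ra rose by 4.01 in wt, 2.80 in MK2-/- and 1.63 in MK2/3-/- BMDM (adjusted p 0.515 against wt). Il10 rose by 6.52, 6.00 and 5.02, and Serpina3f, a serine protease inhibitor, by 6.04, 5.11 and 6.46 in the same order. C1ra rose by 2.21 in wt and 1.49 in MK2-/- BMDM, with LPS arrays at 9.722 to 10.452 and 8.773 to 9.545. For other genes the rise from medium was larger in MK2-/- than in wt BMDM. The chemokine genes Cxcl2, Cxcl3 and Cxcl9 rose by 6.90, 7.48 and 7.18 in wt, 8.51, 9.70 and 9.75 in MK2-/- and 7.03, 6.36 and 11.34 in MK2/3-/- BMDM. Hdc rose by 7.80, 10.04 and 9.65 and Il19 by 6.50, 7.10 and 6.20 in the order wt, MK2-/- and MK2/3-/-. Mean levels after LPS in wt and MK2-/- BMDM were 14.615 and 14.581 for Cxcl2, 14.987 and 15.06 for Cxcl9, and 14.949 and 14.946 for Hdc. They were 14.065 and 15.489 for Cxcl3 and 13.396 and 13.011 for Il19. Without wt medium replicate 4, the MK2-/- minus wt difference was 1.27 for Cxcl2, 1.78 for Cxcl3 and 1.45 for Cxcl9. It was 1.28 for Hdc and -0.14 for Il19. Closer to each other in wt and MK2-/- were Nod1 (4.45 and 4.16), Zfp36 (3.25 and 3.28) and Sdha (-0.68 and -0.43). None of these differences against wt was called (adjusted p 0.456 for Ifnb1 to 0.994 for Zfp36).

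Against MK2/3-/- BMDM, 15 genes were called (0.0671% of genes tested), 8 with a higher LPS-minus-medium value in MK2-/- BMDM, of which 5 were not called higher in MK2-/- and fell in MK2/3-/- BMDM. The largest difference was that of U90926, at 2.03, 3.46, 3.50 and 2.03 in MK2-/- medium, 6.73 to 6.86 in MK2/3-/- medium and 9.70 to 11.34 in MK2/3-/- LPS arrays (6.12 ± 0.90, adjusted p 0.0137). On no array was its MK2-/- medium signal well above background, so the size of this difference is uncertain. In wt its medium arrays were at 5.56 to 8.83. Mapkapk3, which is deleted in the double mutant, was also among them, at -0.55 in MK2-/- and -3.16 in MK2/3-/- BMDM (2.61), with 7.66 to 8.55 on LPS and 10.94 to 11.40 on medium arrays of MK2/3-/- BMDM. Lck, a Src-family kinase known from T cells, rose by 2.75 in MK2-/- and 5.26 in MK2/3-/- BMDM, from 8.27, 8.73, 8.39 and 8.20 in MK2-/- medium to 10.89, 11.28, 10.69 and 11.74 after LPS (-2.50, adjusted p 0.0137). On the MK2-/- arrays none of 5 tested T cell markers was called, with a summed level of 12.44 to 13.10 after LPS and 12.31 to 13.23 in medium. T cell markers were not examined on MK2/3-/- arrays. C1ra, which starts the classical complement cascade, rose by 1.49 against 3.41 (-1.92). Ggct rose by 0.95 (adjusted p 0.00326, or 0.0595 with the replicate block) against 3.19 and Otor by 1.07 against 4.30. Calcrl, the receptor of calcitonin gene-related peptide, rose more in MK2-/- BMDM, by 3.35 against 1.25 (2.11, adjusted p 0.0252). The count moved between 2, without MK2-/- LPS replicate 2, and 41, without MK2-/- LPS replicate 4, when 1 MK2-/- array was left out, and was 138 with array weights.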

How the data were processed

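RNA of 22 BMDM cultures was hybridised to Agilent SurePrint G3 Mouse 8x60K 1-colour arrays with 62976 spots each. The deposited scanner files hold spot intensities from Agilent Feature Extraction 11.0.1.1, which had subtracted background and detrended the processed signal, and the array design was annotated on mm9. A table of log2 values deposited by the authors had been quantile normalised and centred on each probe's median over samples; it correlated with the scanner values with r between 0.993 and 0.999 and was used as an alternative. Processed signals were log2 transformed and quantile normalised over all 22 arrays, control spots were left out, and spots marked as uneven or outlying were set to missing (990 genes lacked an MK2-/- value). Probes with a RefSeq or GenBank accession were kept if 3 or more arrays marked them well above background (28091), and named through RefSeq where the accession matched (27509 of 29150 RefSeq probes), and each gene was represented by its probe with the highest mean signal. Of other probes of the same gene, 2139 were called with it and 130 of these had the opposite sign. Group means of all 22 arrays were fitted with limma 3.58.1 (R 4.3.3) and eBayes, with Benjamini-Hochberg adjustment over 22371 genes at 0.05; the methods did not name such a fit and the methods' t-test was an alternative. The script was tested on simulated data. A fold is given as "at least" where every array of a group left a gene short of well above background, against the higher of its own signal and the lowest signal well above background on each array. The number of arrays limits the precision.

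The genotype, the 31 gene lists (690 of 699 genes tested), the 11 cell type marker lists and the rule for named genes were chosen with earlier results of these data known. The rule took the 15 largest rises and falls without overlap, up to 4 called members of each list in its main direction and 3 in the other, up to 2 members not called, the kinases and the genes the study assayed singly, up to 6 genes called between genotypes, and the 10 most extreme t values in each direction. Cd14, Cd274, Cd86, Csf3, Cxcl10, Ifit1, Il12a, Il1rn, Il23a, Il33, Irf9, Lif, Mcm2, Mcm6, Nfkbia, Plk1, Tnf, Ggct and Calcrl fell outside it and were chosen after their values were seen. Mki67 and Pcna were also chosen after their values were seen and were not followed through the alternatives. Alternatives were fits of the 8 MK2-/- arrays, a replicate block, scaling to the 75th percentile, normexp background correction (offset 50) on the median signal, since no mean signal was used here, other filters and probes, array weights, trended and robust eBayes, a 2-fold minimum, and leaving out arrays. Leaving out the arrays apart on the second component or wt medium replicate 4 was chosen after seeing the data.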

Additional observations from a re-analysis of the deposited data

Results flagged for a closer look

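Of 390 groups of 4 values examined, 38 held 1 array far from the other 3, where chance gives about 1 in 20 groups. MK2-/- LPS replicate 3 had 2927 marked spots. On MK2-/- LPS replicate 1, Sigirr (6.72), Tlr13 (12.67) and Nek2 (3.28) lay above the rest of the group, and Zfp36l1 (9.62) lay below it. On MK2-/- LPS replicate 2, Alox5ap (14.10) lay below the rest of the group. On MK2-/- LPS replicate 3, Kcnj10 (3.53) lay above the rest of the group, and Irf9 (12.95), Tfeb (5.47), Nlrc5 (13.79), Trp53inp1 (5.14), Bmf (3.53) and Ggct (9.09) lay below it. On MK2-/- LPS replicate 4, Nfkb1 (13.68), Tyms (9.91), Tap1 (13.83), Pparg (10.50), Ypel3 (10.97) and Psat1 (13.25) lay above the rest of the group, and Il1a (14.09) lay below it. On MK2-/- medium replicate 1, Gfi1 (2.94), Ccl22 (4.12), Gbp2 (11.52) and Ptgs1 (13.37) lay above the rest of the group, and Cxcl14 (12.99) and Cebpa (12.49) lay below it. On MK2-/- medium replicate 2, Cxcl9 (6.86), Zc3h12c (9.49), Nos2 (8.57) and Slamf1 (3.07) lay above the rest of the group, and Cd274 (7.002), Zmat3 (9.21), P2rx7 (12.18) and Ggct (7.51) lay below it. On MK2-/- medium replicate 3, Gapdh (17.69) lay above the rest of the group, and Sod2 (14.68) and H2-D1 (17.11) lay below it. On MK2-/- medium replicate 4, Cxcr4 (12.32) lay above the rest of the group.

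The LPS response differed between MK2-/- and MK2/3-/- BMDM by the limma test of the difference for 15 genes. The LPS-minus-medium value was higher in MK2-/- BMDM, on the log2 scale, for U90926 (6.12), Adgrg5 (2.93), Mapkapk3 (2.61), Nol4l (2.28), Ampd3 (2.12), Calcrl (2.11), Cbx7 (1.96) and Repin1 (1.56). Of these, Adgrg5, Mapkapk3, Nol4l, Cbx7 and Repin1 were lower after LPS by more in MK2/3-/- BMDM (-2.90, -3.16, -2.76, -1.96 and -2.88) than in MK2-/- BMDM (0.03, -0.55, -0.48, -0.001 and -1.31). The value was lower in MK2-/- BMDM for Otor (-3.23), Lck (-2.50), Ggct (-2.24), Tcl1b2 (-2.16), C1ra (-1.92), Noxo1 (-1.75) and Parp3 (-1.49), and of these Tcl1b2 and Noxo1 were lower after LPS by more in MK2-/- (-2.08 and -2.42) than in MK2/3-/- BMDM (0.08 and -0.67). Cbx7 and Adgrg5 were not well above background on any MK2-/- array. Each genotype was on 1 slide, so slide and genotype cannot be told apart.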

How the results depend on the processing

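The count of 9986 genes called stayed within 1.5 times under the alternatives other than testing all non-control probes, where 16613 of 55681 were called (7029 higher, 9584 lower), and it lay between 6721 with a 2-fold minimum (2434 higher) and 12054 with array weights, with 8820 under a replicate block. Against wt, 96 genes were called with array weights, 1 without the arrays with low Y-linked signal and 1 without the arrays apart on the second component. Against MK2/3-/-, 9 were called from the authors' table, 138 with array weights and 6 without the arrays apart on the second component. Leaving out 1 MK2-/- array at a time gave 9068 to 10252 genes called, 3454 to 4080 higher, 5592 to 6177 lower, 0 to 2 against wt (2 without medium replicate 2) and 2 to 41 against MK2/3-/- (4, 2, 13 and 41 without LPS replicates 1 to 4, and 5, 6, 3 and 10 without medium replicates 1 to 4). The methods' t-test gave 10842 genes unadjusted and 8976 after Benjamini-Hochberg. For genes followed through the alternatives, 13 of 4631 comparisons turned in sign. Under scaling to the 75th percentile, Sdha was at 0.23, Gapdh at 0.60 and H2-D1 at 0.63. In the authors' table Gapdh was at 0.02 and H2-D1 at 0.007. With the probe of highest induction in wt, Cyld was at 0.18 and Cd80 at 2.33. Hspb1, not called, was at 0.047 without the arrays with low Y-linked signal and at -0.65 to 0.57 when 1 array was left out, and Gbp8, also not called, at -0.14 to 0.94. Calls lost elsewhere were those of Sdha, Irf9, Lif, Otor, Ggct, Mcm6, Ifi30, Fam78a and Abcg1, and the cause was not tested. Same-numbered LPS and medium arrays deviated together with r of 0.304, 0.03, -0.086 and 0.149, and unlike numbers with -0.177 to 0.161, so not every pair was over 0.1, although same-numbered arrays share an age and both replicate 3 arrays had low Y-linked signal; whether the numbers pair the samples is not settled. The replicate block gave 3410 higher and 5410 lower, lost the calls of Irf9 (adjusted p 0.0919), Sdha (0.162) and Ggct (0.0595), and called 2 chemokine, 2 MHC class II and 0 MHC class I genes lower and 2 alternative activation genes and 1 MHC class II gene higher. Signal over background limits the size of 240 rises and 284 falls.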

Other observations

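Markers of other cell types were measured on the same 8 arrays, and the range of each list's summed signal is given as log2. Among NK cell markers, 3 of 5 were called higher (Klrk1, Ncr1 and Gzma), with 8.31 to 9.88 after LPS and 9.02 to 9.41 in medium. Of 5 B cell markers 1 was lower, with 7.91 to 8.59 after LPS and 9.03 to 10.53 in medium, so that these groups did not overlap. Of 5 dendritic cell markers 1 was higher and 2 lower, and Xcr1 was not well above background on any of the 8 arrays. Among stromal markers 2 of 5 tested were higher, with 10.77 to 14.22 after LPS and 10.58 to 14.69 in medium. Erythroid, endothelial and osteoclast markers each had 1 gene called higher. The part of such cells in the LPS response was not tested.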
